A study of Sus scrofa with 18 samples.

Results

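The regions described here are H3K4me3 peaks that were called in the circular muscle of the pregnant pig uterus and in neither of the other tissues profiled. A peak counted when it lay on chromosomes 1 to 18 or X and had a fold enrichment of at least 4 in GD15M_CM. It also had to share not even 1 bp with any H3K4me3 peak of GD15M_LM or CD15M_CM. Fold enrichment is taken here as that of the mark over IgG. The GD15M_CM list held 33599 peaks, of which 20385 passed the chromosome and fold criteria, and 1114 of these (5.46%) were found in GD15M_CM only. The regions were thus chosen by their H3K4me3 fold enrichment in GD15M_CM and by the absence of an overlapping H3K4me3 peak, and both are given below as a description only. Positions are on the Sscrofa11.1 assembly and count from 1.

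The myometrium, the muscle of the uterine wall, came from Yorkshire gilts. GD15M_CM and GD15M_LM are the circular and the longitudinal layer of gilts on day 15 of pregnancy, around implantation, and CD15M_CM is the circular layer of cyclic, non-pregnant gilts, also on day 15. Every group came from the mesometrial side of the horn. Per the study's methods the endometrium was first cut away and the muscle layers were then parted, so each sample is a dissected piece of tissue that can hold cells other than muscle. H3K4me3, H3K27ac and IgG were profiled by CUT&Tag, in which an antibody directs a Tn5 transposase to cut the DNA at marked nucleosomes, with n = 2 gilts per group and mark, 18 libraries in all. Peaks were called on the reads of both gilts together, so each of the 6 lists is a single sample. From these lists no value per gilt could be compared and no test between groups was possible. The paper itself compared the groups with DiffBind, and those results are not drawn on here. The lists give no read numbers. The paper reports read numbers for its libraries, but depth was not taken into account here. Shares are followed by their 95% Wilson interval, which covers counting error and no difference between animals.

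H3K4me3 is deposited around the transcription start sites of active or poised genes and is usually broadest and strongest at promoters of expressed genes. H3K27ac is found at active promoters and at active enhancers. Enhancers typically carry little H3K4me3, and weak H3K4me3 away from promoters can occur at strong enhancers, at starts of noncoding transcripts and at the edges of broad promoter domains. In a tissue, a weak promoter peak may come from a small share of the cells, and fewer cells of a type cannot be told apart from less of the mark per cell.

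GD15M_CM-only regions were weak and short beside the other peaks of their list. Their fold enrichment ran from 4.00 to 10.98 with a median of 4.44, against a median of 11.5 in the 19271 peaks that overlapped another group. Their length ran from 200 to 2076 bp with a median of 307 bp, against 1872 bp. Ranked by fold enrichment within the whole GD15M_CM list, they lay between the 38.3rd and the 69.7th percentile, so none was among the strongest peaks. Of the 1114 regions, 904 had a fold enrichment under 5, 53 reached 6 and 7 reached 8, while 926 were under 500 bp and 20 exceeded 1 kb.

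**Figure D1:**
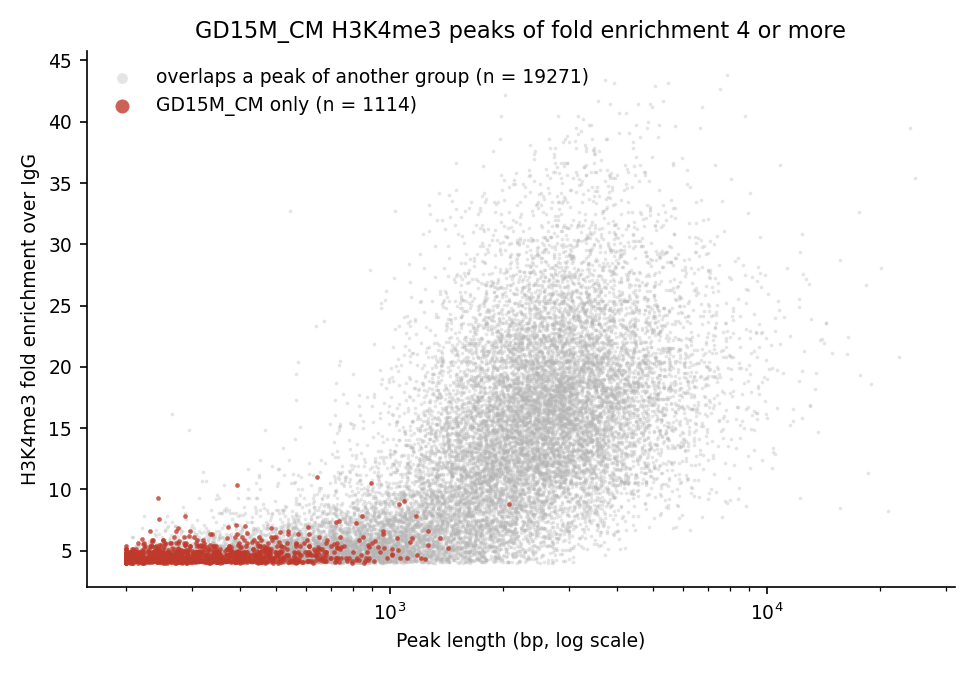
Length in bp (log scale) and H3K4me3 fold enrichment (taken as over IgG) of GD15M_CM peaks with a value of at least 4, 1 point per peak. The 1114 GD15M_CM-only regions (red) fill the corner of short and weak peaks, with a median of 307 bp and 4.44, below most of the 19271 peaks that overlapped another group (grey).

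Fold enrichment fell on discrete values. The regions had 321 distinct pairs of fold enrichment and −log10 p, and 426 regions shared just 4 of them, at fold enrichments of 4.20, 4.44, 4.69 and 4.93, which are 0.24 apart. The next value down, 3.96, was held by 179 peaks that met the rest of the rule. The threshold thus cut a continuous run of peaks: 3243 peaks under a fold enrichment of 4 overlapped no peak of the other groups. The last regions inside it lay in AGPAT3 (chr13:206836972-206837222), near TLR8 (chrX:9626641-9626847) and in ANKRD13A (chr14:40981452-40981673), at 4.003, 4.005 and 4.005. The first peaks outside it were at 3.999, 3.997 and 3.997.

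Most of the regions were not far from other H3K4me3. Another GD15M_CM peak that was no member lay within 1 kb of 591 regions (53.1%, 50.1 to 56.0), and a GD15M_LM or CD15M_CM peak lay within 1 kb of all but 508 regions (45.6% without one, 42.7 to 48.5). Within 10 kb, 139 regions (12.5%) had no peak of either other list, and within 50 kb, 46 regions (4.13%) had none. Of the neighbouring GD15M_CM peaks, 440 overlapped a GD15M_LM peak and 491 a CD15M_CM peak. At the 413 regions whose neighbour had a peak in all 3 lists, the neighbour ranked highest by percentile in GD15M_CM at 170 and lowest in GD15M_CM at 110. It was longest in GD15M_CM at 131 and shortest there at 170. The neighbours of the other regions had no peak in at least 1 of the other lists. Where a peak was present at a neighbour, its median percentile was 74.5 in GD15M_CM, 78.6 in GD15M_LM and 81.1 in CD15M_CM. These medians cover all 591 neighbours in GD15M_CM, but only the 440 and 491 with a peak in the others. With 0 for no peak, the medians over all 591 were 74.5, 68.0 and 76.1. Median lengths where a peak was present were 1870, 2441 and 2421 bp in the same order. In the other lists the highest and longest overlapping peak was taken, and a neighbour shared by several regions counted for each. These orders are therefore a rough description.

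The regions lay beside gene ends more often than on them. RefSeq gene ends were used without strand, so that both the start and the 3′ end of a gene count as an end. A gene end lay within 3 kb of 556 regions (49.9%, 47.0 to 52.8), against 77.0% of all GD15M_CM peaks of fold enrichment 4 or more. A further 404 (36.3%) lay inside a gene farther from its ends and 154 (13.8%) outside genes. The contrast with shared peaks was larger at shorter distances. Of the regions, 1.08% spanned a gene end, against 55.7% of the shared peaks, and 13.1% lay within 1 kb of one, against 64.7%. Few regions of GD15M_LM only (2.83%) or CD15M_CM only (3.2%) spanned one either. Spanning depends on peak length, and the rule left out every peak that overlapped another group's H3K4me3. This contrast is therefore a description only.

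The mirror sets, formed by the same rule from the other lists, set these shares in context. Of the 1663 GD15M_LM-only regions, 31.9% (29.7 to 34.1) lay that close to a gene end, and of the 1219 CD15M_CM-only regions 49.8% (47.0 to 52.6). In this share the GD15M_CM-only regions resembled the cyclic set, and they lay closer to gene ends than the longitudinal set. Within the weakest band, fold enrichment 4 to under 5, a gene end lay within 3 kb of 49.9% of the 904 GD15M_CM-only regions and of 63.2% (61.6 to 64.8) of the 3480 shared peaks. The difference from shared peaks was thus smaller among peaks of similar strength. The intervals treat peaks as independent, which neighbouring fragments are not, and they are no test between sets.

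**Figure D2:**
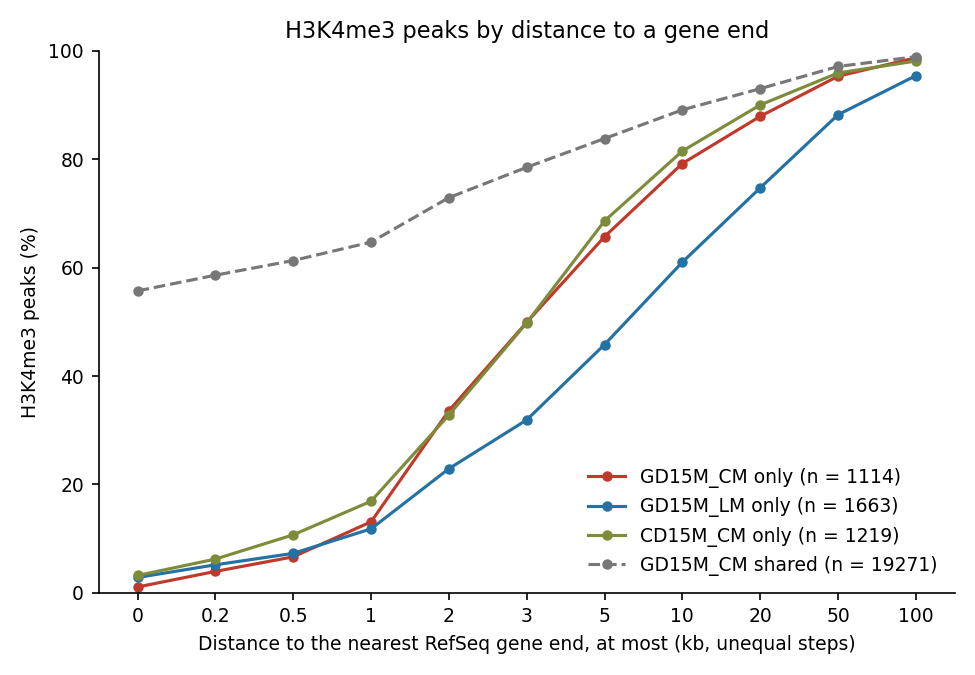
Percent of H3K4me3 peaks (y axis) within a given distance of the nearest RefSeq gene end (x axis, kb, unequal steps) for the 3 sets found in 1 group only and for the shared GD15M_CM peaks. The GD15M_CM-only curve starts at 1.08%, passes 13.1% at 1 kb and reaches 49.9% at 3 kb, close to the CD15M_CM-only curve and above the GD15M_LM-only curve from 1 kb on.

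H3K27ac was not used to choose the regions. A GD15M_CM H3K27ac peak overlapped 427 regions (38.3%, 35.5 to 41.2), against 82.9% of all GD15M_CM H3K4me3 peaks of fold enrichment 4 or more. GD15M_LM H3K27ac overlapped 96 regions (8.62%, 7.11 to 10.4), against 74.6%, and CD15M_CM H3K27ac overlapped 192 (17.2%, 15.1 to 19.6), against 80.3%. H3K27ac was thus scarcer at these regions in every group, and least scarce in the group whose H3K4me3 defined them. With a fold enrichment of 4 to under 5, the regions had 37.4%, 8.19% and 16.5% in GD15M_CM, GD15M_LM and CD15M_CM. Shared peaks of that band had 57.1%, 38.9% and 52.0%, so the gap was smaller there. The H3K27ac lists differ in size. With the 57010 strongest H3K27ac peaks of each list, the shares of the regions were 31.1%, 8.62% and 12.3%. At 246 regions (22.1%, 19.7 to 24.6) H3K27ac was present in GD15M_CM alone, against 5.17% of all peaks. At 664 regions (59.6%) no group had H3K27ac, and at 83 (7.45%) all 3 had it.

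The excess of H3K27ac found in GD15M_CM alone held among peaks of similar strength, while GD15M_CM H3K27ac as a whole was scarcer at the regions. Shared peaks overlap H3K4me3 of another group by definition, so the contrast is not independent of the rule. With a fold enrichment of 4 to under 5, 22.1% (19.5 to 24.9) of the GD15M_CM-only regions and 11.7% (10.7 to 12.8) of the shared peaks had H3K27ac in GD15M_CM alone. The mirror sets also exceeded their own lists in this share: H3K27ac of the own group alone was found at 4.39% of the GD15M_LM-only regions against 1.34% of all GD15M_LM peaks of that strength, and at 12.3% of the CD15M_CM-only regions against 3.08% of all such CD15M_CM peaks. An excess over the own list was thus not particular to GD15M_CM. The GD15M_LM-only regions carried as much H3K27ac of CD15M_CM (55.2%) as of their own group (54.5%). The CD15M_CM-only regions carried 41.2% in their own group and 32.1% in GD15M_CM. Where H3K27ac was present in GD15M_CM, its median fold enrichment was 4.16 at the 427 regions and 4.76 at shared peaks.

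**Figure D3:**
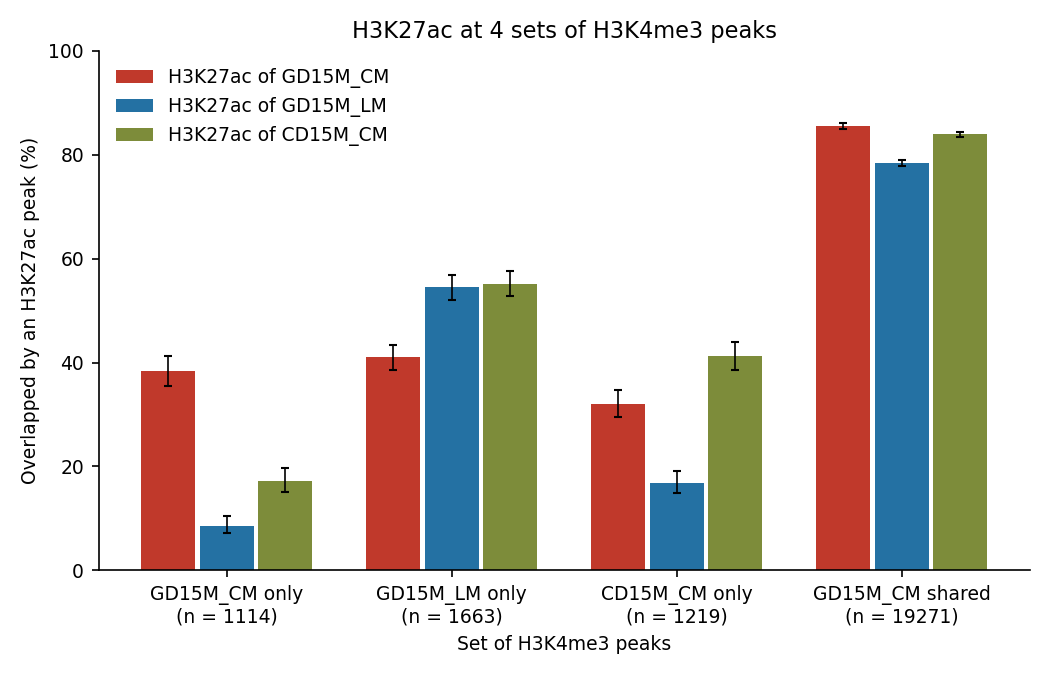
Percent of H3K4me3 peaks overlapped by an H3K27ac peak of each group (bars, with 95% Wilson intervals of counting error) for 4 sets of H3K4me3 peaks. At the GD15M_CM-only regions the GD15M_CM bar (38.3%) stands above those of GD15M_LM (8.62%) and CD15M_CM (17.2%), while at shared peaks all 3 bars lie between 78.4% and 85.5%.

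Regions beside another GD15M_CM peak (within 1 kb) and regions standing alone differed in both features. Of the 591 beside another peak, 65.8% (61.9 to 69.5) lay at most 3 kb from a gene end and 28.6% (25.1 to 32.4) carried GD15M_CM H3K27ac. Of the 523 standing alone, 31.9% (28.1 to 36.0) lay at most 3 kb from a gene end and 49.3% (45.1 to 53.6) carried GD15M_CM H3K27ac. H3K27ac of GD15M_CM alone was found at 18.1% and 26.6%. The first set was thus mostly near gene ends with less H3K27ac, and the second mostly inside genes or between them with more.

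The strongest regions illustrate both kinds. The highest fold enrichment, 10.98, belonged to a region of 643 bp in EPB41L2 (chr1:32577620-32578262), a gene of the protein 4.1 family that links membrane proteins to the cytoskeleton. It lay 52381 bp from a gene end, carried H3K27ac at 5.89 in GD15M_CM and none in the other groups, and the nearest other H3K4me3 peak of any list was 156454 bp away. A region in NLN (chr16:44256351-44257439), which encodes the peptidase neurolysin, had 9.04 for H3K4me3 and 4.74 for H3K27ac of GD15M_CM, again with none in the other groups. RNF212B (chr7:75831242-75832302), a RING finger gene known from meiosis, carried a region of 8.78 that overlapped its end, with H3K27ac at 5.36 in GD15M_CM only. These regions stood well apart from other peaks and had both marks in GD15M_CM alone.

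Other strong regions lay beside other peaks or had no H3K27ac. A region 59 bp from the end of AHSP (chr3:17058888-17059281), the chaperone of alpha globin in red cells, had a fold enrichment of 10.33 and lay 166 bp from another GD15M_CM peak, 234 bp from a GD15M_LM peak and 247 bp from a CD15M_CM peak. The region nearest to STK11 (chr2:77257517-77257759), which encodes a kinase upstream of AMPK, had 9.31 and lay 369 bp from another GD15M_CM peak. Neither carried H3K27ac in any group. Near LOC110257548 on chromosome 18, regions of 10.49 and 7.83 (chr18:53017809-53018700 and chr18:53016404-53017576) lay 122542 and 121137 bp from the nearest GD15M_LM peak and 1264 and 2388 bp from a CD15M_CM peak, and the first carried GD15M_CM H3K27ac at 3.78.

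The longest region, 2076 bp with a fold enrichment of 8.85, lay in LOC100738196 (chr8:113555846-113557921), 83271 bp from a GD15M_LM peak and 441 bp from a CD15M_CM peak. H3K27ac there was 5.90 in GD15M_CM and 2.76 in CD15M_CM. The other 4 longest lay in CNIH3, LOC106504562, SDF2 and WDR11 and measured 1426, 1363, 1266 and 1261 bp. The rest of the 15 strongest lay in or near LOC110255172, ARHGAP32, MAP3K21, LOC102166622, UGT1A6, LOC100624137 and TANC2, at fold enrichments from 7.11 to 7.83. Of these 7, LOC102166622 and LOC100624137 had H3K27ac in all 3 groups, TANC2 in GD15M_CM (4.74) and CD15M_CM (4.03), and the other 4 in none.

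The 5 regions with the strongest H3K27ac found in GD15M_CM alone ranged from 4.20 to 6.14 in H3K4me3. They lay near FAM162B (H3K27ac 6.85, H3K4me3 6.14), SAT1 (6.80 and 4.20), LOC102159588 (6.74 and 4.37), UBAP1 (6.66 and 4.69) and in NGLY1 (6.27 and 4.69). SAT1 encodes the rate-limiting acetyltransferase of polyamine breakdown, NGLY1 the enzyme that strips N-glycans from misfolded proteins, and UBAP1 a subunit of ESCRT-I.

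Several genes held 3 or more regions. MYO10, SALL2, NGLY1 and SLA-1 held 4 each, and CREM, LMTK2, NIPSNAP2, SAT1, SLA-2, SORL1, TERF2 and UFC1 held 3 each. CREM encodes a transcriptional modulator of the cyclic AMP response, and all 3 of its regions (fold enrichments 4.44, 4.69 and 5.65) carried H3K27ac in GD15M_CM alone, at 2.70, 3.59 and 3.97. In SORL1, a sorting receptor gene, the 3 regions (5.53, 6.92 and 6.87) lay next to each other inside the gene and at least 23852 bp from the nearest GD15M_LM or CD15M_CM peak, and 2 of them had H3K27ac in GD15M_CM alone. Such clusters are neighbouring fragments and not independent occurrences: 199 regions had another region within 10 kb and 86 within 1 kb.

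These genes were not marked only in GD15M_CM. Counting peaks from 3 kb before to 3 kb after the gene, CREM had a highest H3K4me3 fold enrichment of 21.9 in GD15M_CM, 22.0 in GD15M_LM and 24.8 in CD15M_CM, and SORL1 had 22.99, 7.34 and 19.04. Fold enrichments are not on a common scale between lists. By percentile within each list, in the same order, CREM had 92.4, 84.1 and 89.9 and SORL1 had 93.8, 56.1 and 81.0. H3K27ac peaks in SORL1 numbered 59 in GD15M_CM, 1 in GD15M_LM and 12 in CD15M_CM, and those in MYO10, an unconventional myosin gene, numbered 41, 6 and 16. The number of called peaks differs between lists for all genes together, so these counts are not a measure of the amount of the mark.

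At the level of genes, 694 of the 28073 RefSeq genes (2.47%) had a GD15M_CM-only region within 3 kb of an end, which is 4.51% of the 15395 genes with any GD15M_CM peak of fold enrichment 4 or more there. They comprised 565 protein-coding, 88 lncRNA, 20 tRNA and 21 other genes. Nearly all were marked elsewhere too: from 3 kb before to 3 kb after the gene, 642 (92.5%) had H3K4me3 peaks of both other groups, 7 had a GD15M_LM but no CD15M_CM peak, 11 had a CD15M_CM but no GD15M_LM peak, and 34 (4.90%) had none of either. The same shares over the 15395 genes are not given here. Whether these shares differ from those of marked genes in general therefore cannot be told.

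The 7 genes marked in both pregnant layers and unmarked in cyclic muscle included GZMA, GZMK, THEMIS and SH2D1A, which are genes of T and NK cells. The other 3 were RANBP3L, MEP1B and LOC102164954. The 11 marked in both circular muscles and unmarked in the longitudinal layer were TMEM72, CFAP65, RNF212B, PDCL2, DNAJB13 and 6 lncRNAs. CFAP65 and DNAJB13 are genes of motile cilia and flagella, and CFAP65 had 4.57 in GD15M_CM and 12.4 in CD15M_CM, each on the scale of its own list. All were named after their values had been seen.

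Of the 34 genes marked in GD15M_CM alone, 18 were protein-coding and 14 had GD15M_CM H3K27ac. ICOS and IFNG, genes of activated T cells, had a fold enrichment of 4.44 each and no H3K27ac. SLPI, a secreted inhibitor of leukocyte proteases, had 5.44 with H3K27ac at 4.03, and UABP-2, a uteroferrin-associated protein of the uterine glands, had 5.35 with H3K27ac at 3.32. TMEM45B had 4.40 with H3K27ac at 5.89. UGT1A6, a glucuronosyltransferase, had 7.35 and SULT2A1, a sulfotransferase of steroids, had 4.07, both without H3K27ac. The transcription factor genes FEZF1 and POU4F1 had 4.89 and 4.13, without H3K27ac. None of SLPI, UABP-2 and TMEM45B had H3K27ac in the other groups. These genes were also chosen after their values had been seen.

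Listed genes give the wider pattern. In the lists of cell type and pathway genes, which were written with earlier results of these data known, 7 of 44 T and NK cell genes (15.9%) and 5 of 27 antigen presentation genes (18.5%) had a GD15M_CM-only region within 3 kb of an end, against 2.47% of all genes. The mirror sets had 1 and 0 of the T and NK genes, for GD15M_LM and CD15M_CM, and 2 and 0 of the antigen presentation genes. Of 33 myeloid genes 1 had a region, CD86, and of 27 epithelial genes 1, EPCAM. None was found at 33 interferon response, 17 B cell, 33 pan-leukocyte, 25 chemokine and cytokine, 29 smooth muscle, 23 endothelial, 8 mesothelial, 18 nerve and Schwann cell and 30 stroma and patterning genes. The mirror sets did reach some of these lists. CD15M_CM-only regions lay at 3 of 33 interferon response genes (9.09%) and 2 of 27 epithelial genes (7.41%). GD15M_LM-only regions lay at 2 of 17 B cell genes (11.8%) and 3 of 30 stroma and patterning genes (10.0%). Over the 7 immune lists, 13 of 212 genes (6.13%) had a GD15M_CM-only region, 7 a GD15M_LM-only and 5 a CD15M_CM-only region. The 13 genes became 2 with a fold enrichment of at least 5 and 1 with a −log10 p of at least 10, so nearly all of these regions were weak.

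**Figure D4:**
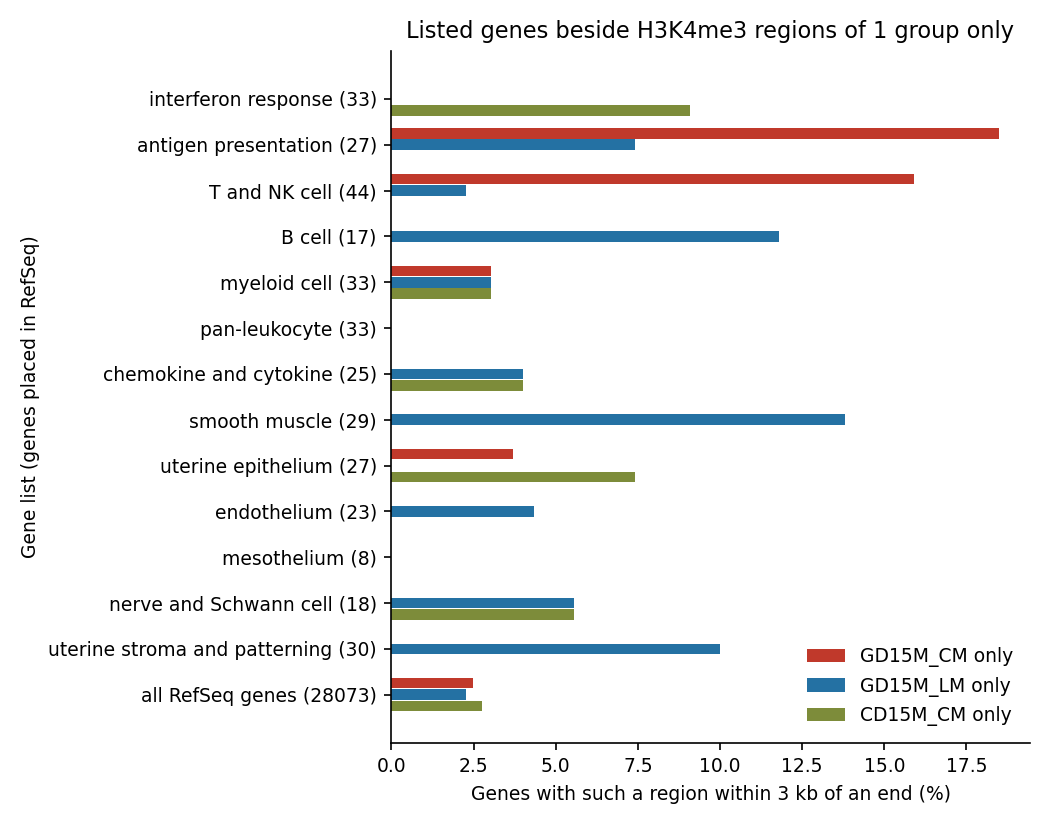
Percent of the genes of each list (x axis) with a region of 1 group only within 3 kb of an end, for the 3 groups, with the number of genes placed in RefSeq in brackets. T and NK cell genes (15.9%) and antigen presentation genes (18.5%) have the longest GD15M_CM bars, against 2.47% of all genes, and the smooth muscle list has only a GD15M_LM bar.

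T and NK genes with a region were ICOS, IFNG, GZMA, GZMK, THEMIS, SH2D1A and SLAMF6. ICOS is a costimulatory receptor of activated T cells, IFNG the gene of interferon gamma, GZMA and GZMK encode granzymes of cytotoxic cells, THEMIS acts in T cell receptor signalling, and SH2D1A and SLAMF6 are an adaptor and a receptor of the SLAM family. The ICOS region (chr15:107351158-107351976, 819 bp) lay 905 bp from the gene end and 177274 bp from the nearest peak of another group. The IFNG region (chr5:32482422-32482648, 227 bp) lay 22 bp from the gene end and 188938 bp from the nearest. These were the only H3K4me3 peaks of any list at these 2 genes.

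At the other 5 genes a further GD15M_CM peak lay within 1 kb of the region. GZMA, for which RefSeq holds 2 entries, had its region at 6.86 (chr16:34282737-34283220), 184 bp from a GD15M_LM peak of 6.34, and 52883 bp from the nearest CD15M_CM peak. GZMK had a region of 4.44 (chr16:34218722-34219020), and its highest fold enrichment was 6.23 in GD15M_CM and 4.72 in GD15M_LM. THEMIS had a region of 4.41 and highest values of 5.41 and 5.53, and SH2D1A a region of 4.80 and highest values of 4.80 and 5.77, in the same order. By percentile within each list, GZMA had 60.3 and 53.1, GZMK 58.2 and 42.9, THEMIS 54.5 and 49.3 and SH2D1A 49.5 and 50.5. These 4 genes had no CD15M_CM peak. SLAMF6, with a region of 4.44, had highest values of 7.83, 7.97 and 3.99 in GD15M_CM, GD15M_LM and CD15M_CM, at percentiles of 62.9, 57.6 and 40.9.

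**Figure D5:**
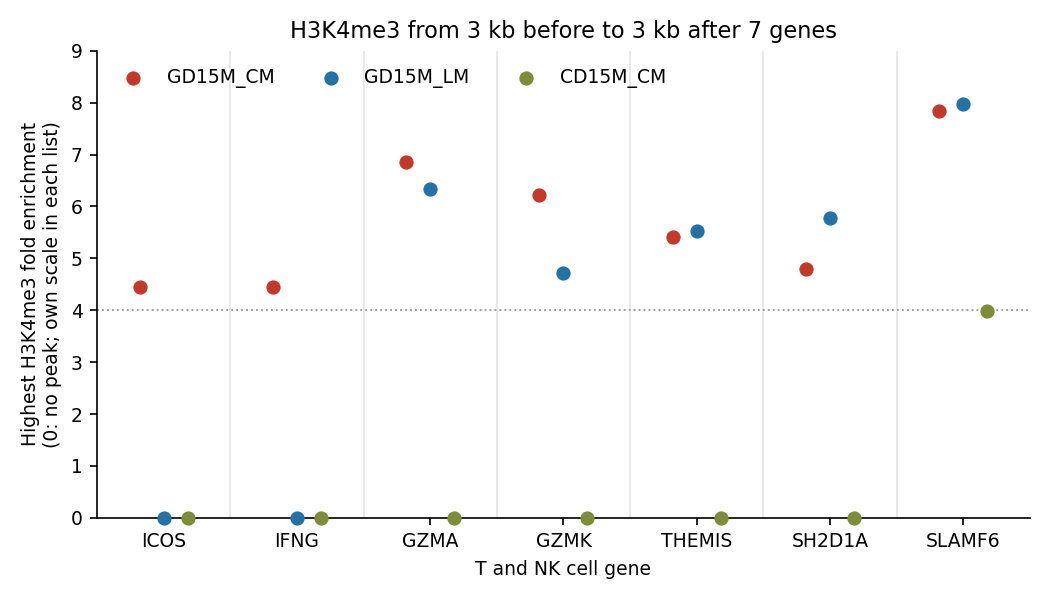
Highest H3K4me3 fold enrichment from 3 kb before to 3 kb after the 7 T and NK cell genes with a GD15M_CM-only region, in each group (0 is no peak, and the dotted line is the minimum of 4 set for a region). GD15M_CM has a peak at all 7, GD15M_LM at all but ICOS and IFNG, and CD15M_CM at SLAMF6 (3.99) alone. Fold enrichments are not on a common scale between lists, so heights are not to be compared between groups.

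The whole T and NK list, which includes the 7 genes picked by their GD15M_CM peak, was marked least in CD15M_CM. Of its 44 genes, a peak of fold enrichment 4 or more lay at an end of 28 in GD15M_CM, 27 in GD15M_LM and 16 in CD15M_CM, and the median percentile of the highest peak, with 0 for none, was 51.8, 44.9 and 18.8. Without the 7, a peak of fold enrichment 4 or more lay at 21, 22 and 16 of 37 genes. A peak of any strength lay at 27, 26 and 23 of these 37. GD15M_CM and GD15M_LM hardly differed in either count, and CD15M_CM was closer to them in the second. The medians were not recomputed without the 7. Peaks of fold enrichment 4 or more lay at 26 of 33 pan-leukocyte genes in each group. Of 33 myeloid genes, 18, 19 and 18 had one. H3K27ac peaks of any strength lay at the ends of 18, 10 and 10 T and NK genes, and those of fold enrichment 4 or more at 2, 2 and 5, most in CD15M_CM. None of these genes with H3K27ac was among the 7, and no region at the 7 genes carried H3K27ac in any group. How far the share of T and NK cells in the tissue pieces accounts for the regions at these genes was not tested.

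Antigen presentation genes with a region were SLA-2, SLA-6, SLA-7, SLA-8 and PSMB9. SLA genes are the swine class I and class II histocompatibility genes, and PSMB9 encodes a subunit of the immunoproteasome. The regions were weak, from 4.04 at PSMB9 (chr7:25075527-25076016) to 4.58 at the second of 2 regions near SLA-8 (chr7:23627722-23627974). All 5 genes also had peaks of 13.3 or more in every group. SLA-7 for instance had a highest fold enrichment of 19.3 in GD15M_CM, 17.7 in GD15M_LM and 30.4 in CD15M_CM, at percentiles of 88.2, 75.9 and 95.6. Only the region near SLA-7 carried H3K27ac, at 3.13 in GD15M_CM.

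Chromosome 7, which holds the SLA genes, had 108 regions among 1450 peaks (7.45%, 6.21 to 8.91), after chromosome 10 with 44 of 530 (8.30%, 6.24 to 11.0) the highest share, and X the lowest with 23 of 635 (3.62%). From the first to the last class I SLA gene (chr7:22824137-23649342), 16 of 74 peaks (21.6%, 13.8 to 32.3) were GD15M_CM-only regions, whereas 0 of 61 GD15M_LM peaks and 1 of 63 CD15M_CM peaks there belonged to their own mirror set. From the first to the last SLA gene of either class (chr7:22824137-25182665) the counts were 19 of 183 (10.4%, 6.75 to 15.6), 4 of 163 (2.45%, 0.958 to 6.14) and 10 of 159 (6.29%, 3.45 to 11.2), and the intervals of the circular sets overlapped. Both spans were chosen after the values had been seen. Class I SLA genes are related in sequence, some more closely than others, and reads of low mapping quality were removed. The RefSeq models of SLA-1 and SLA-2 also run across neighbouring SLA genes. The assignment of a region to 1 of these genes is therefore uncertain.

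More epithelial genes had an H3K4me3 peak of fold enrichment 4 or more in both circular layers than in the longitudinal layer. EPCAM, an adhesion molecule of epithelial cells, carried a region of 870 bp at 4.93 (chr3:93182263-93183132) with H3K27ac at 3.40 in GD15M_CM only. Its highest H3K4me3 fold enrichment was 13.7 in GD15M_CM, 8.80 in GD15M_LM and 13.8 in CD15M_CM, at percentiles of 75.8, 59.3 and 71.9. CLDN7, a tight junction gene, held a region of 5.13 inside the gene. Its highest values were 35.4, 9.83 and 25.4, at percentiles of 99.6, 61.3 and 90.7. The longest peaks there measured 24815, 3233 and 15178 bp in the same order. The GD15M_CM one is longer than the gene and reaches beyond it, so the highest values may not belong to CLDN7 alone. Over the epithelial list, peaks were counted at the ends of 27 genes. Those of H3K4me3 with a fold enrichment of 4 or more lay at 20 in GD15M_CM, 16 in GD15M_LM and 20 in CD15M_CM. H3K4me3 peaks of any strength lay at 21, 19 and 22 in the same order, a smaller difference. H3K27ac peaks of any strength lay at 22, 14 and 21, and those of fold enrichment 4 or more at 15, 7 and 12. The part of epithelial cells in the regions near SLPI, UABP-2, EPCAM and CLDN7 was not tested.

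Smooth muscle genes, the defining genes of the tissue, were marked in all 3 groups, with 26 of 29 carrying a peak of fold enrichment 4 or more at an end in GD15M_CM and 27 in each of the others. The median percentile of their highest H3K4me3 peak was 73.3 in GD15M_CM, 87.1 in GD15M_LM and 84.6 in CD15M_CM. No smooth muscle gene had a GD15M_CM-only region, and 4 had a GD15M_LM-only region. Among the other listed genes, CD86, a costimulatory ligand of antigen-presenting cells, had a region of 5.17, 88 bp from its end (chr13:138503990-138504219) without H3K27ac. ESR1, the estrogen receptor gene, held a region of 4.44 inside the gene with H3K27ac at 2.99 in GD15M_CM only, and GBP1, an interferon-induced GTPase gene, held one of 4.93 without H3K27ac.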

How the data were processed

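The libraries were CUT&Tag libraries of H3K4me3, H3K27ac and IgG, grouped by their labels into GD15M_CM, GD15M_LM and CD15M_CM. Per the labels and the study's methods, the authors aligned reads to Sscrofa11.1 (BWA 0.7.17-r1188), discarded duplicate and poorly mapped reads (SAMtools 1.9, Picard 2.8.3) and ran MACS2 2.2.6 on the pooled replicates. The deposited lists hold 1 fold enrichment per peak and −log10 of the p-value and q-value. Fold enrichment was taken as a ratio of the mark over IgG, and its scaling is not given in the sources used here. The paper names IgG as the control of its signal normalization and names no control for the peak calling. The names of the deposited −log10 columns were unreadable, and their order was taken from MACS2's usual output. The peak length is the deposited value in bp.

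Overlaps, distances and counts were computed in Python 3.11.15 (NumPy 2.4.6, pandas 2.3.3, SciPy 1.17.1, with Matplotlib 3.10.9 for the figures). Each peak was ranked by fold enrichment within its own list, since fold enrichments are not on a common scale between lists. Genes were the 28073 genes of the RefSeq annotation of Sscrofa11.1 on the named chromosomes. On simulated data, 0 of 400 intervals differed between this code and a direct count. No sequence was read, since no genome was used here.

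The regions and gene lists were chosen with earlier results of these data known. A gene of 1 list is not reported here and was left out of that list's counts. Genes named were the 15 strongest and 5 longest regions, regions within 3 kb of a listed gene, genes with 3 or more regions, the 5 regions of highest H3K27ac in GD15M_CM only and those nearest the threshold. Alternatives changed the thresholds, the windows and the overlap that counted.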

Additional observations from a re-analysis of the deposited data

Results flagged for a closer look

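On sequences outside chromosomes 1 to 18 and X, which the rule left out, 12 of 340 GD15M_CM peaks of fold enrichment 4 or more overlapped no peak of the other groups, 2 of them on Y. The strongest stood on an unplaced scaffold, at positions 84462 to 88198, and drew attention because it lay outside the data compared above. It had a fold enrichment of 20.17 and a length of 3737 bp, above the highest fold enrichment (10.98) and length (2076 bp) of the 1114 regions. The scaffold had 2 H3K4me3 peaks in GD15M_CM, 1 in GD15M_LM with a fold enrichment of 4.90 and 0 in CD15M_CM. No H3K27ac peak overlapped the region. Gilts are female, and how reads came to be placed on Y was not tested.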

How the results depend on the processing

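Of 77 recomputed values, 24 stayed within the main value's counting interval, or within 1.5 times of it for counts, and 53 did not. The order of the 3 H3K27ac shares, GD15M_CM above CD15M_CM above GD15M_LM, was the same under every alternative run. The number of regions, 1114, became 3441 with a fold enrichment of at least 3, 210 with 5, 146 with −log10 p of at least 10, 508 with no other group's peak within 1 kb and 527 when peaks less than 1 kb apart were joined. The share within 3 kb of a gene end, 49.9%, became 42.5% with the −log10 p minimum, 30.3% with no other group's peak within 1 kb, 13.1% and 79.2% for windows of 1 and 10 kb, 44.1% for protein-coding genes, 46.3% from the peak centre and 31.9% for regions standing alone. With a fold enrichment of at least 5, H3K27ac of GD15M_CM, GD15M_LM and CD15M_CM covered 42.4%, 10.5% and 20.5%. With the −log10 p minimum the shares were 52.1%, 13.7% and 26.7%, and GD15M_CM alone 24.7%. With no other group's peak within 1 kb they were 49.8%, 13.2% and 22.8%, and 26.4% alone. With only other peaks of at least 3 counted, GD15M_LM was 10.8% and CD15M_CM 20.1%. Requiring 50% coverage gave 34.6%, 6.82% and 13.0%, and H3K27ac within 1 kb gave 61.1%, 27.4% and 43.0%. Only H3K27ac peaks of fold enrichment 4 or more gave 21.3%, 3.23% and 6.46%, and 15.4% alone. Alternatives added after seeing the data were H3K27ac at the region's centre (CD15M_CM 13.3%), the 57010 strongest H3K27ac peaks of each list (31.1% in GD15M_CM, 12.3% in CD15M_CM and 17.8% alone) and regions standing alone (49.3%, 13.4% and 22.9%, and 26.6% alone). The share beside another GD15M_CM peak, 53.1%, became 46.8% and 57.6% at fold enrichments of 3 and 5, 14.0% with no other group's peak within 1 kb and 77.0% within 3 kb. The 13 immune genes became 33 and 2 at fold enrichments of 3 and 5, 1 with the −log10 p minimum, 7 and 22 for windows of 1 and 10 kb and 7 for regions standing alone. Apart from changes of the criteria themselves, the cause was not tested. Alternatives on transcription starts were not run because strand was not used. No paired analysis was possible because both gilts of a group were pooled in each list.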
